A study of Mus musculus with 5 samples.

Results

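B cell and immunoglobulin genes were followed in the lungs of 5 ovalbumin-exposed mice. The genes were chosen by name: every probe whose annotation names only Ighm, Cr2, Blk, Vpreb3, Jchain or Pou2af1. All 6 genes are annotated, on 7 of the 17280 probes of the array. Of these, 5 probes naming 4 genes were measured on 4 or 5 arrays and could be tested, among 9727 genes tested in all. Ighm has 2 probes, which are shown one by one before their mean. Jchain had values on 3 arrays and Pou2af1 on 0, so neither was tested.

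Each of the 5 arrays carried amplified lung RNA of 1 C3H mouse sensitised and challenged with ovalbumin (an ova mouse), set against 1 pool of amplified lung RNA from control C3H mice. C3H is an inbred strain, and ovalbumin is an egg-white protein given as an allergen to model asthma in mice. What the control mice received, their number, the age and sex of any animal, and the dyes are not stated in the labels used here. The same pool sits on every array, so the spread given below leaves out that among control mice. With 1 array per ova mouse, it joins differences between mice and differences between arrays. A trait of the pool, or a dye effect if the dyes were not swapped, cannot be told apart from an effect of ovalbumin.

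Values are deposited log ratios, read as log2, from which the median of each array was subtracted. The log base and the numerator are not stated, so results are given as negative (below 0) or positive (above 0). Several of 7 tested genes of allergic airways lay far on the negative side: Retnla, a secreted protein of alternatively activated macrophages and epithelium, had a mean of -4.79 ± 0.30 (SD, n = 5), and the goblet cell genes Clca1 and Muc5ac had -4.33 ± 0.40 and -3.00 ± 0.55. Arg1, arginase 1, had -3.48 ± 1.23. The eotaxin gene Ccl11 was nearer to 0 at -0.94 ± 0.40, and the interleukin-13 decoy receptor gene Il13ra2 had 0.01 ± 0.11 (n = 4; limma adjusted p = 0.918). Members on the negative side therefore share the side of Retnla, Clca1, Muc5ac and Arg1. The labels do not settle which lung had more RNA, so a negative ratio does not by itself mean less RNA in ova mice. The SD of the ratios across probes was 0.20 in mouse 1 and 0.32 to 0.38 in the other mice.

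B cells recognise antigen through a receptor made of an immunoglobulin and the signalling chains Cd79a and Cd79b. Naive B cells carry IgM, whose heavy chain is encoded by Ighm. Cr2, complement receptor 2, couples complement-coated antigen to that receptor and is also found on follicular dendritic cells. Blk is a Src family kinase that acts below it, and Vpreb3 is a relative of the surrogate light chain of B cell precursors. Pou2af1 is a coactivator that octamer-binding factors recruit to immunoglobulin promoters, and Jchain links the units of secreted IgM and IgA. In allergic lungs, B cells gather around airways and vessels, and plasma cells derived from them make allergen-specific antibody.

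The promoters of Vpreb3 and Cr2 are shown because these genes lay on opposite sides of the ratio and because the octamer is the site through which Pou2af1 acts. Each is the 250 bases before the gene's start, from RefSeq (GRCm38.p6, the C57BL/6J reference, not C3H), read 5′ to 3′ on the gene's strand. Capitals mark matches to the octamer ATGCAAAT or to its 7-letter core TGCAAAT, on either strand.
Vpreb3: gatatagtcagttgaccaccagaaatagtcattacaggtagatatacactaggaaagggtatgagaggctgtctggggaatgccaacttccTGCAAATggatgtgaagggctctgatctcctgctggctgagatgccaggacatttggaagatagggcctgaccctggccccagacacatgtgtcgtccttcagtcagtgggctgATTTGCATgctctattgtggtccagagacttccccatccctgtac
Cr2: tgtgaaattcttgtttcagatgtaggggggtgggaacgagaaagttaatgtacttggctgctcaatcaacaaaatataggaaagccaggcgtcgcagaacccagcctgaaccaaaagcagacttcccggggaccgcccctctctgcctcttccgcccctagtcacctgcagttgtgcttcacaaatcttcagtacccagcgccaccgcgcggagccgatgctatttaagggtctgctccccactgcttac

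The Vpreb3 window (chr10:75948050-75948299, plus strand) held 1 full octamer, in reverse orientation, 45 to 38 bases before the start, and 1 further core match 159 to 153 bases before it. The Cr2 window (chr1:195176720-195176969, minus strand) held neither sequence. The full octamer was found in 526 of 32851 such windows (1.60%) and the core, which every full octamer contains, in 1171 (3.56%). Of 71 windows of tested genes in the B cell lists described below, 3 held the full octamer, those of Vpreb3, Blnk and Prkcb. Blnk lay on the negative side at -0.36 ± 0.29 (limma adjusted p = 0.0329), opposite to Vpreb3. Prkcb was near 0 at 0.02 ± 0.11 (n = 4; limma adjusted p = 0.866). Whether the octamer goes with the side of the ratio was not tested. The table gives promoters for 4 of the 6 genes, the other pair being Jchain, with no match, and Pou2af1, with 1 core match.

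Of the 4 tested genes, Ighm, Cr2 and Blk lay past the threshold (adjusted p under 0.05) on the negative side and Vpreb3 on the positive side. Over all genes tested, 27.3% were past the threshold: 15.0% were past it below 0 (negative calls) and 12.3% above 0 (positive calls). Over all probes, 26.4% were past it and 14.7% were negative calls. In whole lung, a change in the number of B cells and a change in RNA per B cell cannot be told apart.

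The first Ighm probe, 6465, had log ratios of -1.16, -0.14, -1.28, -0.74 and -1.24 in mice 1 to 5. Mice 1, 3 and 5 lay close together, mouse 4 was intermediate and mouse 2 was near 0. Its mean was -0.91 ± 0.48 (SD, n = 5; limma adjusted p = 0.00585), which is 1.88-fold if the log base is 2 and 2.49-fold if it is e. The second Ighm probe, 15189, had 0.03, -0.06, -0.35, -0.25 and -0.31, with a mean of -0.19 ± 0.16. It was not past the threshold (limma adjusted p = 0.0702), but was without mouse 1, at -0.24 (adjusted p = 0.0338).

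The probes of this 1 gene thus gave ratios of unequal size. Probe 6465 lay below probe 15189 in 5 of 5 mice, with differences (6465 minus 15189) of -1.18, -0.09, -0.93, -0.49 and -0.93. Their mean was -0.72 ± 0.43. In an exact two-sided sign-flip permutation, 2 of 32 sign patterns gave a mean this large, the fewest that 5 mice allow. Averaged over both probes, Ighm had -0.57, -0.10, -0.82, -0.50 and -0.77, a mean of -0.55 ± 0.29 (95% interval -0.78 to -0.32; limma adjusted p = 0.00638). The gene's call therefore rests on its first probe.

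**Figure D1:**
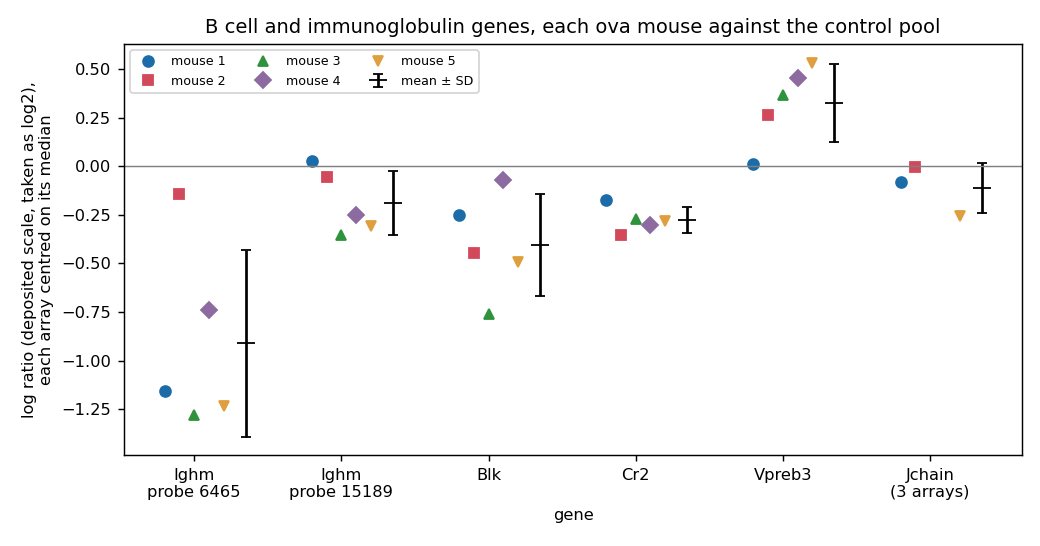
Centred log ratio between each ova mouse and the control pool, numerator not stated (vertical axis, deposited scale taken as log2), for the 5 tested probes and for Jchain. Coloured symbols are mice and black bars the mean ± SD. Ighm probe 6465 is near -1.2 in mice 1, 3 and 5 but -0.14 in mouse 2, Cr2 has the narrowest spread, and Vpreb3 alone lies above 0 in every mouse.

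The annotation holds 5 more probes of immunoglobulin genes, picked by their symbols. Iglv1, a lambda light chain variable segment, had -0.42, -0.45, -0.75, -0.91 and -0.26. All 5 mice were below 0, with a mean of -0.56 ± 0.26 (limma adjusted p = 0.00502). The probe annotated only as Igh, the heavy chain locus, had -1.03, -0.27, 0.19, -0.18 and -1.07. It was low in mice 1 and 5, as Ighm probe 6465 was, but above 0 in mouse 3, and was not past the threshold (-0.47 ± 0.55, adjusted p = 0.0934). The variable segment probes Igh-VS107 (-0.07 ± 0.14) and Igk-V21 (-0.02 ± 0.09) did not pass either (limma adjusted p = 0.405 and 0.809), and Ighg3, the IgG3 heavy chain, had a value on 2 arrays only. Immunoglobulin genes are a family of similar sequences, and whether their probes share signal was not tested.

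**Figure D2:**
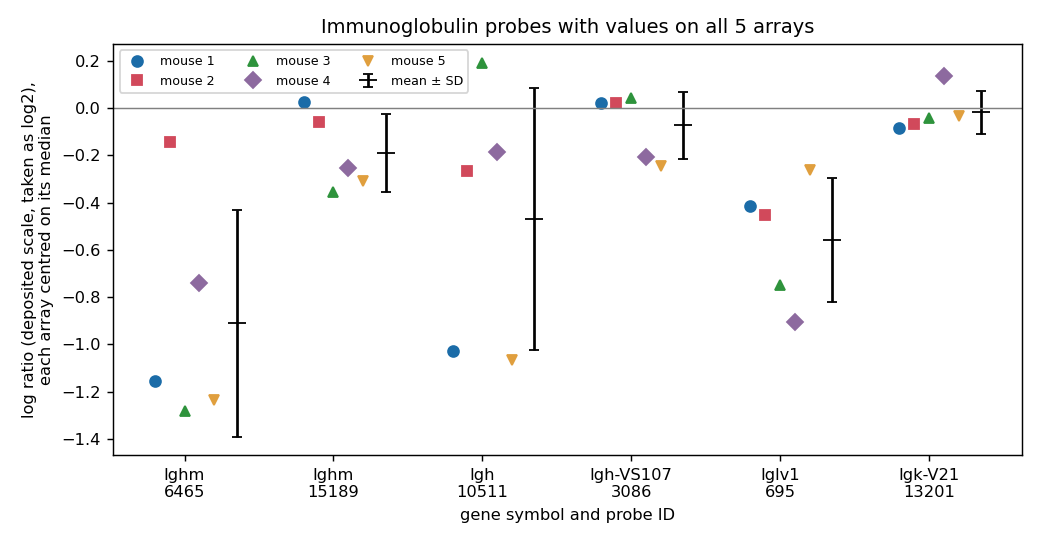
Centred log ratio per ova mouse (vertical axis, taken as log2) for the 6 immunoglobulin probes with values on all 5 arrays, with mean ± SD. Ighm probe 6465 and Iglv1 lie below 0 in every mouse, the Igh probe spans -1.07 to 0.19, and Igh-VS107 and Igk-V21 scatter around 0.

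Cr2, the complement receptor, had the smallest spread of the tested members: -0.18, -0.35, -0.27, -0.30 and -0.28 in mice 1 to 5. All mice lay below 0, mouse 1 nearest to it. The mean was -0.28 ± 0.07 (95% interval -0.38 to -0.17; limma adjusted p = 0.00433), 1.21-fold if the base is 2. Fcer2a, the low-affinity IgE receptor CD23, which like Cr2 is carried by B cells and follicular dendritic cells, had -0.30 ± 0.13 (adjusted p = 0.00719) and was named after its values were seen. Of the 6 tested follicular dendritic cell genes, Cr2 and Fcer2a (33.3%) were past the threshold below 0, against 15.0% of all genes. Clu, Coch, Cxcl13 and Vcam1 did not pass. The Fcer2a probe lies 6 IDs after the Cr2 probe, a distance taken up below.

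Blk, the B cell kinase, varied more, with -0.25, -0.44, -0.76, -0.07 and -0.49. Mouse 3 was lowest and mouse 4 close to 0. Its mean of -0.40 ± 0.26 (95% interval -0.62 to -0.19) had an adjusted p of 0.0155 with limma, which became 0.0596 at -0.38 without mouse 5.

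Vpreb3, the surrogate light chain relative, had 0.01, 0.26, 0.36, 0.45 and 0.53, above 0 in 5 of 5 mice but in mouse 1 only just. Of genes with 5 values, 19.3% lay above 0 in all mice and 21.7% below 0 in all. The mean was 0.32 ± 0.20 (95% interval 0.15 to 0.50; limma adjusted p = 0.0170). The call was lost without mouse 3, mouse 4 or mouse 5, with means of 0.32, 0.29 and 0.27 and adjusted p-values of 0.0619, 0.0539 and 0.0618. Ighm lay below Vpreb3 in 5 of 5 mice, with a mean difference of -0.87 ± 0.40 (2 of 32 sign patterns as large in an exact two-sided permutation, the fewest possible; this pair was chosen with its values known).

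Jchain, the joining chain, had -0.08 in mouse 1, -0.00 in mouse 2 and -0.26 in mouse 5. With probes on 3 arrays admitted, its mean of -0.11 ± 0.13 (n = 3) was not past the threshold (limma adjusted p = 0.311).

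Some member probes resembled probes at fixed distances in the ID order of the array. Across all probe pairs naming different genes, mean ratios correlated at distances of 6, 18 and 24 IDs (Pearson's r = 0.14, 0.12 and 0.12 over 7466, 7359 and 7660 pairs), against -0.02 to 0.03 at the other 27 distances up to 30. Probes are not independent replicates. The probe 6 IDs after Ighm probe 6465 names Cnot6l and had -0.78, -0.06, -0.63, -0.43 and -0.63, with mouse 2 nearest to 0 as for Ighm. By contrast, Rtkn2, 6 IDs before Ighm probe 6465, had a mean of 0.39 with mouse 2 highest at 0.87, and Gimap4, 18 IDs after it, had 0.26. These neighbours were named after their values were seen. The probe 18 IDs after Cr2 names the replication gene Cdc45 (mean -1.01). All 6 probes at these distances from Cr2 had means below 0, Fcer2a at 6 IDs among them. Over all genes tested, 4862 of 9727 had means below 0. Around Vpreb3, the 3 probes with at least 4 values had 0.43 (Fmo1, at 6 IDs), 0.01 (Il2ra, at 18 IDs) and -0.36 (no gene named, at 24 IDs), and around Blk the means ranged from -0.20 to 0.25. Whether signal carried over between such probes was not tested.

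**Figure D3:**
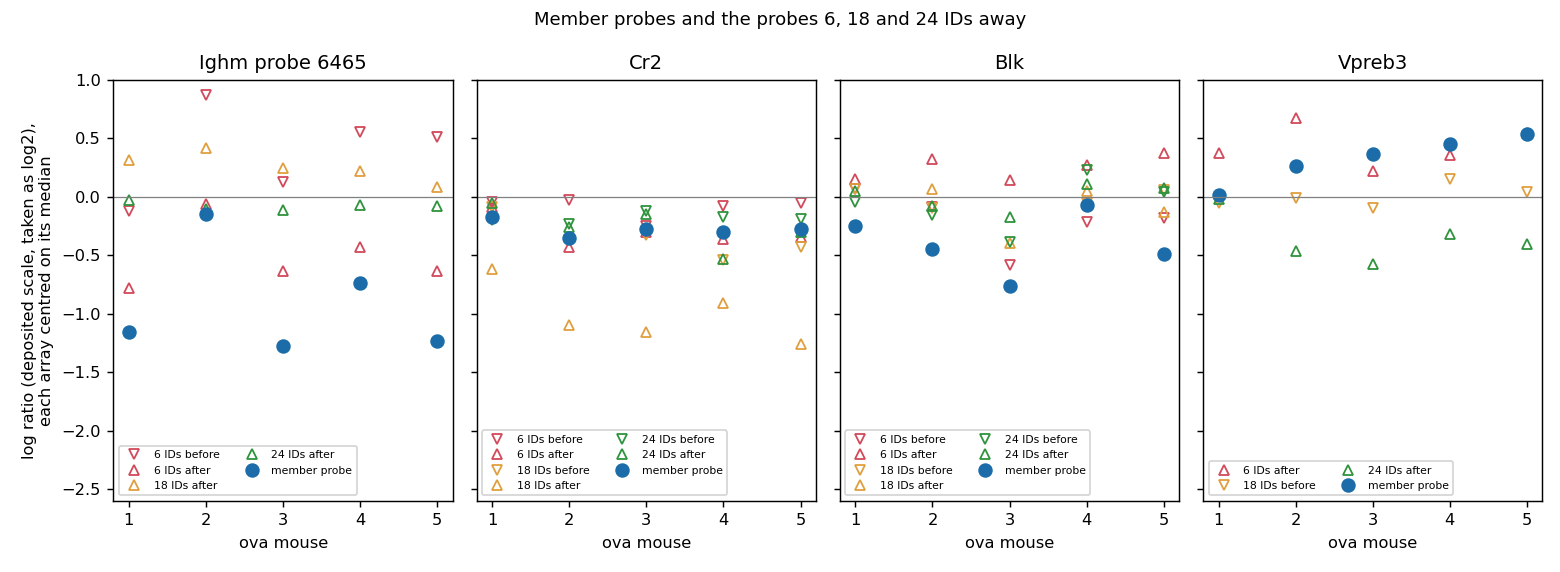
Centred log ratio (vertical axis, taken as log2) of 4 member probes (filled circles) and of the probes 6, 18 and 24 IDs before or after them that had at least 4 values (open triangles), by ova mouse. One probe 6 IDs from Ighm probe 6465 (Cnot6l, mean -0.51) is nearest to 0 in mouse 2 as Ighm is, and the Cr2 values lie among those of its neighbours.

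The wider B cell programme was described with 8 lists of receptor, development, signalling and antibody genes. The lists hold 136 gene symbols, some of them older names of another listed gene, and 73 genes were tested. Of these, 33 (45.2%) were negative calls and 4 (5.5%) positive calls, against 15.0% and 12.3% over all genes. The median ratio was -0.24 against 0.00. The counts of the single lists below are to be read against the same shares. Leaving out the 4 members, 30 of 69 were negative calls and 3 positive calls. Without mouse 3, mouse 4 or mouse 5 the positive count was 2.

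Among the receptor chains, 4 of 5 tested genes were negative calls, and the median was -0.54. The list includes Pigr, which is epithelial, and not the Igh, Igh-VS107 and Igk-V21 probes above, which did not pass. Cd79a, a signalling chain of the receptor, had -0.52, 0.20, -0.68, -0.90 and -0.81, so that mouse 2 was the only one above 0 (mean -0.54 ± 0.44, limma adjusted p = 0.0279). Its partner Cd79b had -0.18 ± 0.24 and did not pass (adjusted p = 0.156). Pigr, the epithelial receptor that carries joined IgA and IgM into secretions, had -0.33 ± 0.26 (adjusted p = 0.0341).

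Of 13 surface molecules, 7 were negative calls and 1 a positive call, and the median was -0.30. Ms4a1, the B cell antigen CD20, had -0.13, 0.01, -0.72, -0.70 and -0.68, with mice 3 to 5 apart from mice 1 and 2 (mean -0.44 ± 0.36, adjusted p = 0.0298). Cd22, an inhibitory coreceptor of B cells, had -0.36 ± 0.27 (adjusted p = 0.0248) and Cd72, another coreceptor, -0.52 ± 0.38 (adjusted p = 0.0200). Fcgr2b, the inhibitory IgG receptor of B cells and macrophages, had -1.88 ± 0.95 (n = 4). Cd81, a widely expressed tetraspanin of the Cr2 coreceptor complex, was on the positive side at 0.57 ± 0.21 (adjusted p = 0.00249), opposite to Cr2.

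Of 13 signalling genes, 7 were negative calls and 0 positive ones, and the median was -0.28. Lat2, an adaptor of B cells and myeloid cells, had -0.91 ± 0.38, and Btk, a kinase that both lineages use, -0.62 ± 0.16 (limma adjusted p = 0.00256 and 0.00104). Of 10 transcription factors, 3 were negative calls, among them Spi1, the myeloid and B cell factor PU.1 (-0.50 ± 0.04), and Bcl6, a factor of germinal centre B cells (-0.35 ± 0.13). Id3, an inhibitor of the E proteins that drive B cell development, was on the positive side at 0.70 ± 0.24 (adjusted p = 0.00168).

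Of 12 plasma cell and secretion genes, 5 were negative calls and 0 positive ones. Sec11c, a signal peptidase subunit (-0.78 ± 0.22), and Creld2, an endoplasmic reticulum stress gene (-0.58 ± 0.25), had the largest ratios; both act in many secretory cells. Xbp1, the transcription factor of plasma cell secretion, had -0.05 ± 0.19 and did not pass (limma adjusted p = 0.636).

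Among survival and follicle signals, 4 of 9 tested genes were negative calls and 1 a positive call. Tnfsf13b, the B cell survival factor BAFF, which myeloid cells produce, had -0.51, -1.16, -0.94, -1.21 and -0.83, below 0 in every mouse (mean -0.93 ± 0.28, adjusted p = 0.00104). Its receptors Tnfrsf13b (TACI, -0.52 ± 0.19) and Tnfrsf13c (BAFF receptor, -0.36 ± 0.26, named after its values were seen) were on the same side. Cxcl13, the chemokine that draws B cells into follicles, had -0.06, 0.04, -1.05 and -0.62 in mice 1, 2, 3 and 5 and did not pass (adjusted p = 0.119). Ltbr, the lymphotoxin beta receptor, was on the positive side at 0.16 ± 0.09 (adjusted p = 0.0448).

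Of 3 early B cell genes tested, Vpreb3 was on the positive side, Il7r, the interleukin-7 receptor that T cells also carry, was on the negative side (-0.25 ± 0.18, adjusted p = 0.0327), and Dntt did not pass. Of 8 class switch and IgE genes, 2 were negative calls and 0 positive ones: Fcer1g, the signalling chain of the IgE receptor and of myeloid Fc receptors (-0.69 ± 0.23), and Il21r, the interleukin-21 receptor (-0.53 ± 0.35).

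**Figure D4:**
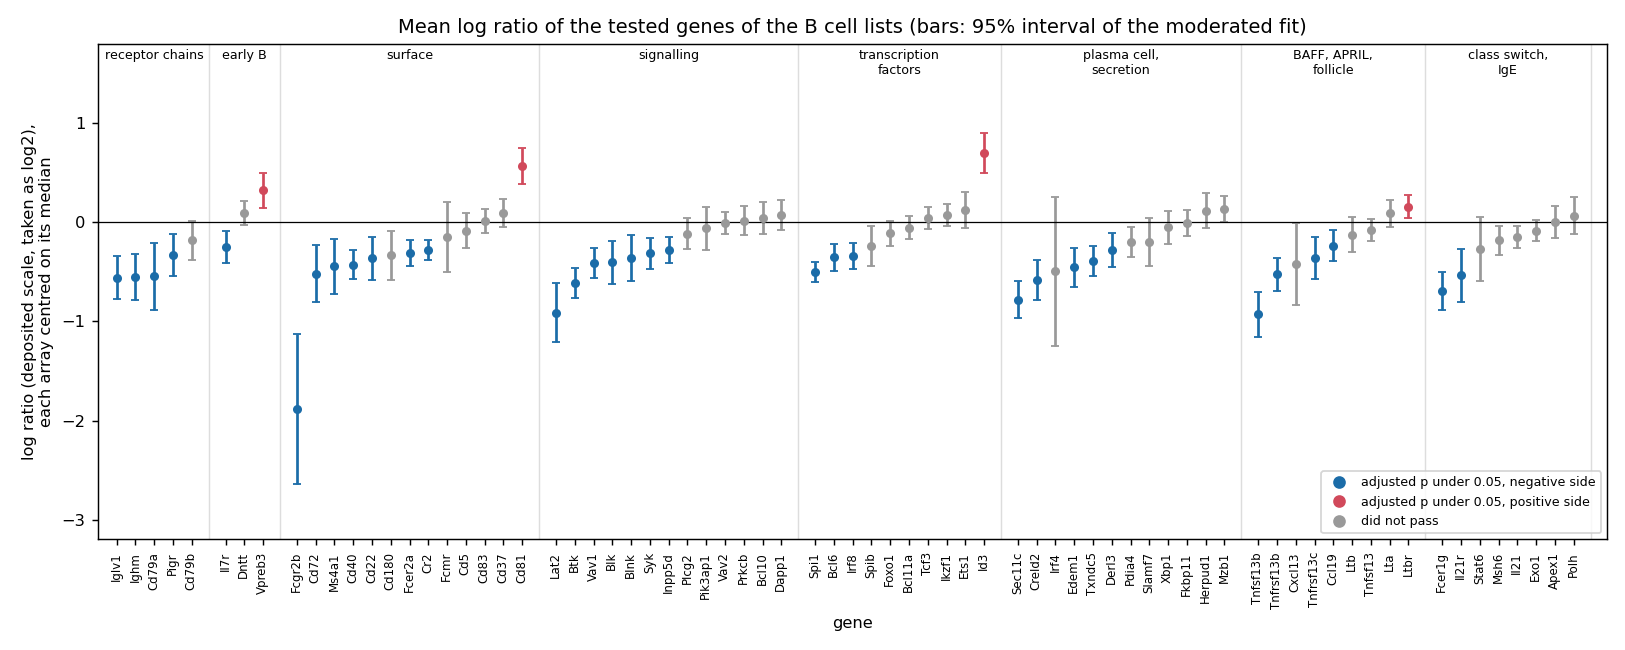
Mean centred log ratio (vertical axis, taken as log2) with the 95% interval of the moderated fit for the 73 tested genes of the 8 B cell lists, each gene drawn once under its first list. Blue marks the 33 negative calls, red the 4 positive calls (Vpreb3, Cd81, Id3 and Ltbr) and grey the 36 that did not pass.

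Several of these genes are shared with myeloid cells, whose markers were called too. Of 8 tested macrophage markers, 5 were negative calls and 0 positive ones, with a list median of -0.84 and medians from -1.30 to -0.14 in single mice. Of 14 T cell markers, 2 (14.3%) were negative calls, a share near the 15.0% of all genes, and 9 had means below 0, with a median of -0.05. The part of either cell type in the B cell lists was not tested.

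The mice did not keep 1 order across these genes. Mouse 1 had the macrophage median nearest to 0, -0.14, yet a ratio of -1.16 at Ighm probe 6465. The ratios of mouse 1 also had the smallest SD across probes, 0.20 against 0.32 to 0.38 in the other mice. Mouse 2 had a macrophage median of -0.91 but the highest value of the 5 mice for Ighm probe 6465 (-0.14), Cd79a (0.20), Ms4a1 (0.01) and Cd22 (-0.12). In the same mouse Cd72 (-1.12) and Lat2 (-1.53) had their lowest values. These genes were picked after their values were seen.

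**Figure D5:**
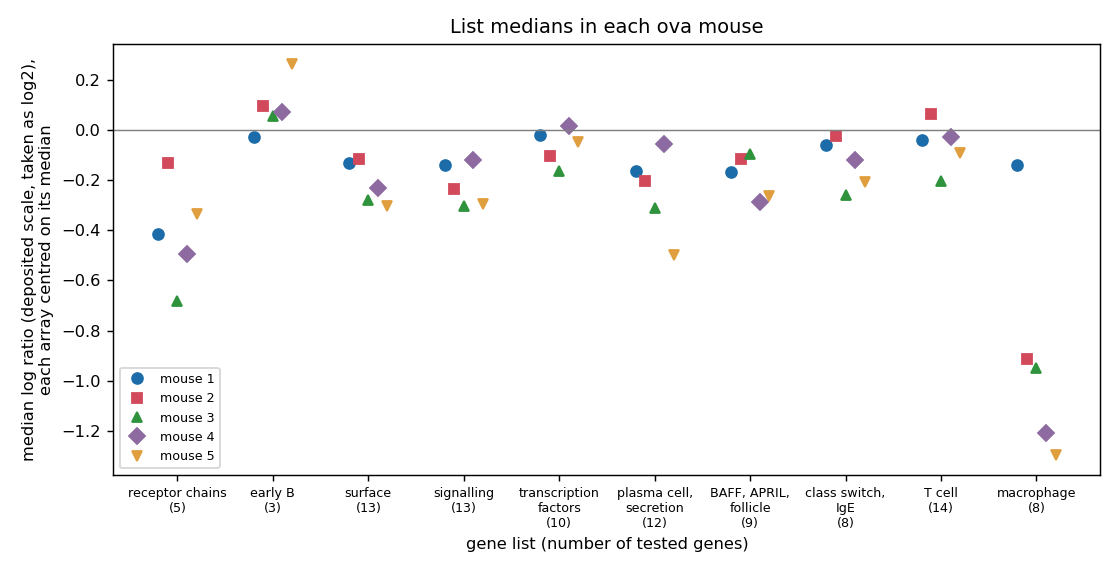
Median centred log ratio (vertical axis, taken as log2) of the tested genes of each B cell list and of the T cell and macrophage lists, by ova mouse, with the number of genes in brackets. The receptor chains have medians from -0.68 in mouse 3 to -0.13 in mouse 2, the T cell list has medians from -0.20 to 0.06, and the macrophage list has -0.14 in mouse 1 and -0.91 or lower in the others.

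The genes whose 5 ratios were closest to those of a member, by root mean square difference among 8038 genes, were Hsp90aa1 (0.11) and Mad1l1 (0.14) for Ighm, Me1 (0.03) and Urod (0.04) for Cr2, Pspn (0.12) and Gucd1 (0.13) for Blk, and Fam183b (0.05) and Pip4k2c (0.05) for Vpreb3. None of these 8 is in the B cell lists. Those lists supply only 64 of the 8042 genes with values on all 5 arrays, members included. Their absence among 8 genes therefore says little about the members.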

How the data were processed

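The authors deposited 1 table of signed log ratios, read here as log2 values, for 5 two-colour arrays; scanner, background correction, normalization, log base and numerator are not stated in the labels or the table. The largest size, 5.17, exceeds what a log10 scale of a 16-bit scanner allows. Spot brightness was not used here, so depth is unknown and the number of arrays limits precision. Between 11778 and 13320 of 17280 probes had values per array, and Pearson's r between arrays across probes was 0.64 to 0.83. Gene symbols came from the platform annotation (14722 probes with 1 symbol, 1 with several, 2557 with none); 14445 matched a gene identifier of the RefSeq table of GRCm38.p6, which changed 0 symbols.

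Arrays were centred on their medians, and probes of a gene were averaged per array. Probes (11714) and genes (9727) with values on at least 4 arrays were tested against 0 with limma 3.58.1 in R 4.3.3 (lmFit, eBayes, two-sided), with Benjamini-Hochberg adjustment over the whole table and a threshold of 0.05; the scripts were tested on simulated data. The pool counts as 1 control sample.

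Named are all members, the genes past the threshold with the largest ratios on each side of each B cell list (at most 2 a side), further listed B cell genes where tested, 4 allergy genes, the 2 genes most like each member, and probes 6, 18 or 24 IDs away beyond 0.5 in size. Genes that complete a small count, and further names marked so, were chosen after values were seen. Members, lists and rules were chosen with earlier results of these data known. Of the further listed B cell genes, Igkc, Igha, Ighg1 and Ighe were not analysed here, and Prdm1 and Pax5 had values on too few arrays.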

Additional observations from a re-analysis of the deposited data

Results flagged for a closer look

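In mouse 4 the probe of the kappa light chain segment Igk-V21 had a ratio of 0.14, while the other mice lay between -0.08 and -0.04. Its gap to the nearest mouse was 0.78 of the whole range, above the limit of 0.71 for 5 values. It was the only such case among 35 sets of values (members, named genes and immunoglobulin probes), and chance marks about 1 in 20.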

How the results depend on the processing

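Ighm, Cr2, Blk, Vpreb3 and both Ighm probes kept their side under all alternatives run. Without moderation of the variances, 616 genes and 565 probes were past the threshold, and 6 and 1 genes of the B cell lists on the negative and positive side. Cr2 then kept its call, while Ighm (-0.55, adjusted p = 0.0724), Ighm probe 6465 (-0.91, 0.0751), Blk (-0.40, 0.0990) and Vpreb3 (0.32, 0.0934) lost theirs. Leaving out 1 mouse at a time gave 1599 to 2553 genes and 1862 to 2940 probes past the threshold, lowest without mouse 5 and, at 1678 and 1869, without mouse 3, and 23 to 31 negative and 2 to 4 positive genes of the B cell lists (these counts were added after seeing the data). Blk then ranged from -0.49 to -0.32, Vpreb3 from 0.27 to 0.40 and Ighm probe 15189 from -0.24 to -0.15. The other alternatives (no centring, quantile or scale normalization, 3 or 5 arrays required, array weights, robust variances, other probe averages) changed no call of a member. No paired analysis was possible because the series has 1 group. Signal over background is not known here, so faint probes could be recognised only by their blanks.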

Other observations

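Several genes of the B cell lists had values on 3 arrays only and were tested only under the alternative that admits 3 arrays. Pax5, the factor that commits cells to the B lineage, had -0.08, -0.10 and -0.10 in mice 1, 2 and 3, and Ebf1, an early B cell factor, had 0.02, 0.09 and 0.14 in mice 1, 2 and 5. Tnfrsf17, the plasma cell survival receptor BCMA, had -0.13, 0.04 and -0.05 in mice 1, 2 and 5. Il4, the cytokine that directs switching to IgE, had 0.06, -0.72 and -0.52 in the same mice.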
